A study of Mus musculus with 3 samples.

Results

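Carnitine palmitoyltransferase 1a (Cpt1a) and 5 cytochrome P450 genes of the Cyp4a family (Cyp4a10, Cyp4a12a, Cyp4a12b, Cyp4a31 and Cyp4a14) were followed on 3 one-colour microarrays of mouse mast cells. The 6 genes were picked by name with their signals already known: genes of this group read brighter on the array labelled GW9662 than on the vehicle array, so that contrast is given below as a description. The array design reads them with 11 of its 39429 non-control probes, in 20 of its 43020 non-control spots. Of the 20 spots, 11 belong to Cpt1a and 3 each to Cyp4a10 and Cyp4a31, and Cyp4a12a, Cyp4a12b and Cyp4a14 have 1 each.

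Bone-marrow-derived mast cells, which are mast cells grown in culture from bone marrow progenitors, came from male C57BL/6 mice of 12 weeks that lacked Pafah2, a phospholipase that releases oxidised fatty acids from phospholipids. The epoxide sample was given 17,18-EpETE and 19,20-EpDPE, epoxides of omega-3 fatty acids, together at 300 nM in the proportion 2 to 3. The GW9662 sample was given 0.5 µM of GW9662, which blocks the lipid-sensing nuclear receptor PPAR gamma, and the vehicle sample was given DMSO. Every sample had 12 h of treatment and all of them carried the Pafah2 deficiency, so no wild-type cells entered these comparisons. There was 1 array per treatment and the labels do not say whether animals were pooled, so no test was possible and the spread between cultures is unknown.

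The treated arrays carry conflicting labels. The value table gives the treated signals the opposite labels: what the scanner file of the GW9662 sample holds stands there under epoxides, and what the scanner file of the epoxide sample holds stands under GW9662. In each case 100% of spots gave a constant quotient within 0.001, and the vehicle column matched its own scanner file just as closely. The arrays are named below by the sample that holds their scanner file, and under the value table's labels the 2 treatments change places in every sentence.

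CPT1A is the enzyme of the outer mitochondrial membrane that turns long-chain acyl-CoA into acylcarnitine, the form in which fatty acids are carried into mitochondria for beta-oxidation, and malonyl-CoA inhibits it. CYP4A enzymes are P450s of the endoplasmic reticulum that hydroxylate fatty acids at or next to the terminal methyl carbon, and CYP4A12A is known in mice for making 20-HETE from arachidonic acid. Both kinds of gene are known targets of PPAR alpha in liver and kidney, where Cyp4a mRNAs are most abundant.

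The probes that carry the results are shown first, because some of them are too alike to count as separate readings. The probe of Cyp4a10 at chr4:115198463-115198522 and that of Cyp4a31 at chr4:115243923-115243982 (mm9, plus strand) match each other at 54 of 60 bases. Capitals mark the 6 bases that differ, and all sequences are those of the array files, 5′ to 3′.

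Cyp4a10: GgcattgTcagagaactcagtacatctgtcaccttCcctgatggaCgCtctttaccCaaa
Cyp4a31: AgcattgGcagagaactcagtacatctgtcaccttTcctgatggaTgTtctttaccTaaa

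Counted from the 5′ end, with the Cyp4a10 base named first, the differences are G1A, T8G, C36T, C46T, C48T and C57T, and the longest run without a difference is 27 bases. These are probes A_55_P2092030 and A_55_P1952399, which start at bases 1193 and 1181 of the transcripts named in the files. The files list Cyp4a32 as a second target of the Cyp4a10 probe. RNA of either gene could bind the other's probe, and how much did so was not tested.

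A second pair of probes lies further downstream, A_51_P254895 for Cyp4a10 (base 2031, with no position given in the files) and A_55_P2050628 for Cyp4a31 (base 2441, chr4:115251553-115251612). They share a run of 34 bases, of which 30 are shown in capitals.

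Cyp4a10: AGTTTCTCCATCTTCCCTCCTTTCTGCAAT
Cyp4a31: AGTTTCTCCATCTTCCCTCCTTTCTGCAAT

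No other probe on the array shared 20 or more bases with a probe of the 6 genes. The probes of Cyp4a12a (A_55_P2043083, chr4:115005258-115005317) and Cyp4a12b (A_55_P2152607, chr4:115111580-115111639) had no run longer than 6 bases in common, and 30 bases of each are shown with those of the 2 Cpt1a probes (A_51_P427674, chr19:3385374-3385433, then A_55_P2057405, chr19:3384060-3384119).

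Cyp4a12a: atgcatatctgaaagagccaattttcaacc
Cyp4a12b: catcttccccacAATAAAgttcataatgtg
Cpt1a: tcttaggactacttgctaacctctgttact
Cpt1a: acagtcccccgaagtcttttgaatcggctc

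Capitals in the Cyp4a12b probe mark AATAAA, the letters of the common polyadenylation signal. On the strand of the probe these letters occurred in 3 of the 11 probes and in 12.6% of all probes on the array, and their reverse complement TTTATT occurred in 0 of the 11 and in 4.03% of all. The files list Cyp4a12b as a second target of the Cyp4a12a probe, and only Cyp4a12b for the Cyp4a12b probe. The files thus tie the second reading to 1 gene, and the first may hold RNA of both.

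A level is the log2 of a spot's signal over the 75th percentile of its own array, taken over non-control spots, and a log2 ratio is the difference of 2 levels of the same probe. A level says nothing about the amount of one probe's RNA against another's. On the 3 arrays, 54.6% (epoxides), 53.3% (GW9662) and 52.3% (vehicle) of the non-control spots stood well above background, and the lowest level so called was -5.57 for epoxides, -5.03 for GW9662 and -4.84 for vehicle. Each of the 8 mast cell markers examined was above background on every array, with summed signals, in units of the 75th percentile, of 454 for epoxides, 531 for GW9662 and 597 for vehicle. Their lower reading with epoxides depended on the scaling. The median log2 ratio of the 8 for epoxides over vehicle was -0.21 with this scaling and -0.18 with normexp. It was 0.03 with quantile normalization and -0.04 with cyclic loess. Copies of other probes disagreed most in rows 181 to 400 of 532, where 7.69% of single readings, from probes spotted at least 5 times, were off their probe's median by 2-fold or more, against 0.589% elsewhere. Because several probes of the 6 genes lie in those rows, the row is given for each spot.

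Cyp4a12a and Cyp4a12b, closely related fatty acid hydroxylases of the Cyp4a cluster, were higher on the GW9662 array and close to vehicle on the epoxide array. The Cyp4a12a spot, in row 235, had a level of -0.18 with epoxides and 1.37 with GW9662, against -0.16 with vehicle. Its processed intensities were 2040, 5181 and 1713 on the same arrays. The GW9662 array stood apart, at a log2 ratio over vehicle of 1.53 (2.89-fold), and the epoxide array lay at -0.021 relative to vehicle. The Cyp4a12b spot, in row 271, had 0.12 with epoxides and 1.51 with GW9662, against 0.11 with vehicle. Its log2 ratio was 1.40 (2.63-fold) for GW9662 over vehicle and 0.006 for epoxides over vehicle, so the high array was again the one labelled GW9662. In these bulk cultures, more cells that express a gene and more RNA per cell cannot be told apart.

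Both spots lie in the rows where copies disagree and neither probe has a second copy, so the error of these single readings is unknown. Neighbouring spots hold other probes and show only whether the area as a whole was shifted. Within 10 rows and 10 columns of the Cyp4a12a spot, 228 other spots above background had a median log2 ratio of -0.009 for GW9662 over vehicle, and 0 of them were 2-fold or more from vehicle. Around the Cyp4a12b spot, 220 spots had a median of -0.0015, with 2 brighter by 2-fold or more and 1 dimmer by as much. Neither area was shifted as a whole, which leaves single stray readings, the kind of fault seen in these rows, unmeasured. The pixel CV, which is the SD of a spot's pixels over their mean, was 0.133, 0.141 and 0.137 for Cyp4a12a on the epoxide, GW9662 and vehicle arrays and 0.079, 0.061 and 0.086 for Cyp4a12b.

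Cyp4a10, a fatty acid hydroxylase and a classic PPAR alpha target of mouse liver, and Cyp4a31, its neighbour in the cluster, were also higher on the GW9662 array through the near-identical pair of probes. The Cyp4a10 spot, in row 475 and so outside the rows where copies disagree, had a level of -3.52 with epoxides and -1.88 with GW9662, against -3.09 with vehicle. That is a log2 ratio of 1.21 (2.31-fold) for GW9662 over vehicle and -0.42 for epoxides over vehicle. None of the 197 spots around it was 2-fold or more from vehicle, and their median was 0.0014. With normexp background correction the ratio was 0.98, just under 2-fold. The Cyp4a31 spot, in row 252, had -2.90 with epoxides and -1.08 with GW9662, against -2.52 with vehicle. Its ratios were 1.44 (2.71-fold) and -0.38, and the 198 spots around it had a median of -0.037 for GW9662 over vehicle. On each of these spots GW9662 was the highest array and epoxides the lowest. Probes with a vehicle level within 0.5 of that of the Cyp4a10 probe (2308 of them) had a median of -0.15 for epoxides over vehicle, with 5th and 95th percentiles of -0.98 and 0.41, and the lower epoxide reading lies well within that range.

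The downstream probes of these genes did not follow. A_51_P254895 of Cyp4a10, in row 386, had -4.38 with epoxides and -4.14 with GW9662, against -3.94 with vehicle, a log2 ratio of -0.20 for GW9662 over vehicle and -0.43 for epoxides over vehicle. A_55_P2050628 of Cyp4a31, in row 377, had -4.28, -3.68 and -3.48 on the same arrays, with ratios of -0.20 and -0.80. On both spots vehicle was the highest array. The 16937 probes not above background on any array had a median of -0.20 for GW9662 over vehicle (quartiles -0.21 and -0.19) and -0.75 for epoxides over vehicle (quartiles -0.79 and -0.71), so the GW9662 ratios of the downstream probes lie at the value of unlit probes although the spots were marked well above background. The last probe of Cyp4a10 (A_55_P2011111, base 1981, row 522, chr4:115206150-115206209) also lies downstream of the near-identical pair. That of Cyp4a31 (A_55_P2024033, base 736, row 31, chr4:115242872-115242931) lies upstream of it and has Cyp4a10 listed as a second target. Neither probe was above background on any array. Which of the transcripts' parts the cells contain was not tested.

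Cyp4a14, the remaining Cyp4a gene among the 6, was read by 1 probe (A_51_P238576, row 500, chr4:115158914-115158973, minus strand). Its levels of -6.51 with epoxides, -5.80 with GW9662 and -6.17 with vehicle were not well above background on any of the 3 arrays, so no fold is given.

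**Figure D1:**
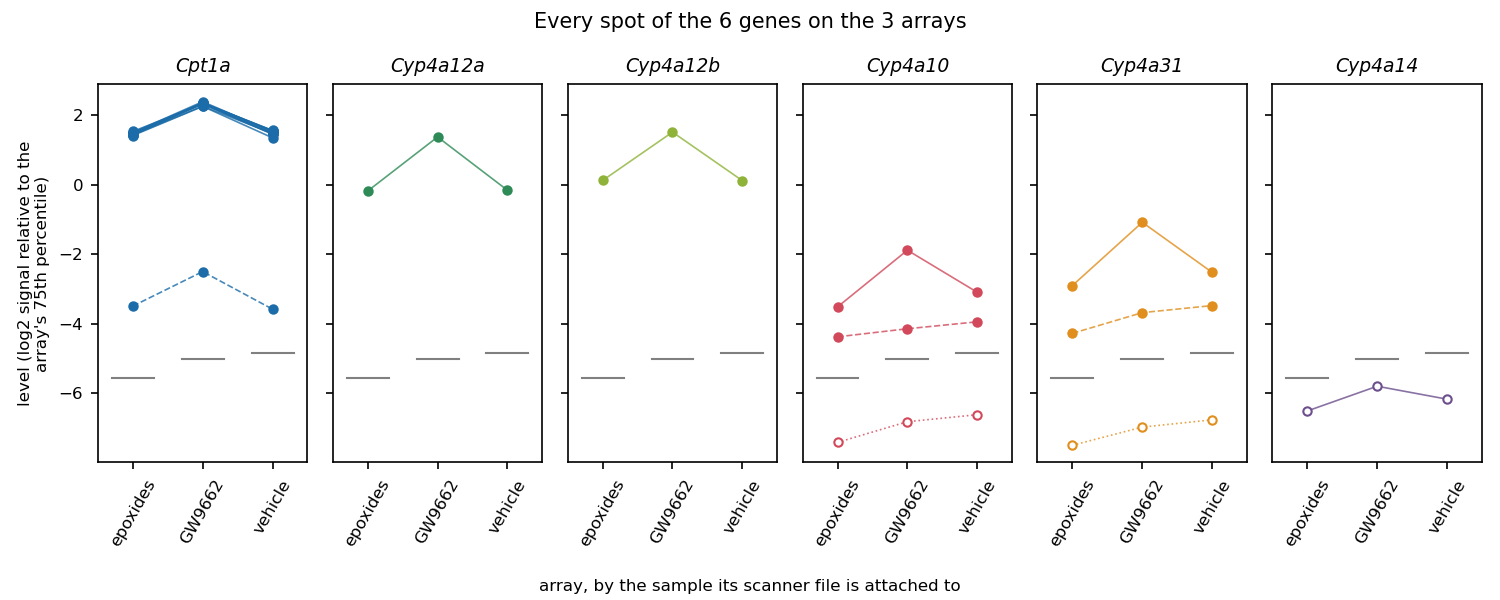
Level of every spot of the 6 genes (log2 signal relative to the array's 75th percentile) on the epoxide, GW9662 and vehicle arrays, with 1 line per spot, filled points for spots well above background, open points for the others, and grey bars at the lowest level of any spot that an array called well above background. The 10 copies of the main Cpt1a probe and the single spots of Cyp4a12a and Cyp4a12b peak on the GW9662 array, and so does the upper spot of Cyp4a10 and of Cyp4a31, while the lower spots of these 2 genes do not.

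Cpt1a was the only one of the 6 genes with repeated spots. Its main probe has 10 copies, all of them brighter on the GW9662 array than on either of the others. The copies averaged 1.47 ± 0.037 with epoxides, 2.32 ± 0.042 with GW9662 and 1.49 ± 0.064 with vehicle (SD among 10 copies on 1 array, which is spot error only). The log2 ratio was 0.83 (1.78-fold) for GW9662 over vehicle, between 0.78 and 0.91 among copies, and -0.026 for epoxides over vehicle, between -0.079 and 0.066. Levels of the copies ran from 2.25 to 2.39 on the GW9662 array. They ran from 1.41 to 1.53 on the epoxide array and from 1.35 to 1.56 on the vehicle array. These ranges hold spot error only, and how often copies of other probes separate in this way was not counted.

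Outside the rows where copies disagree there were 6 copies. The copy in row 135 had 1.496 with epoxides and 2.39 with GW9662, against 1.52 with vehicle, and that in row 415 had 1.48, 2.35 and 1.53 on the same arrays. The copy in row 499 had 1.43 with epoxides, 2.26 with GW9662 and 1.47 with vehicle. A gap of about the same size separated GW9662 from vehicle in the first rows and in the last ones. The copies in row 502 had 1.44 and 1.42 with epoxides, 2.33 and 2.32 with GW9662, and 1.45 and 1.46 with vehicle. The copy in row 519 had 1.41, 2.25 and 1.35, the lowest level of the 10 on every array, and the widest ratio of GW9662 over vehicle, at 0.91. The 6 ratios averaged 0.85 ± 0.045.

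Inside those rows there were 4 copies. The copy in row 243 had 1.53 with epoxides and 2.32 with GW9662, against 1.48 with vehicle. Those in rows 320, 322 and 327 were nearly alike, at 1.48 each with epoxides, 2.34, 2.35 and 2.35 with GW9662, and 1.55, 1.56 and 1.55 with vehicle. The 4 ratios averaged 0.81 ± 0.018, so Cpt1a showed the same difference in either area of the array. For comparison, the SD of the log2 ratio of GW9662 over vehicle among copies had a median of 0.036 over 210 probes with 5 or more copies above background.

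The second Cpt1a probe, in row 311 and starting at base 2627 of the transcript, against base 3941 for the main probe, was dim. It had -3.49 with epoxides and -2.50 with GW9662, against -3.58 with vehicle. Its log2 ratio of 1.08 (2.11-fold) for GW9662 over vehicle and 0.089 for epoxides over vehicle puts GW9662 highest again. The array was uneven around it: of 211 spots, 7 were brighter with GW9662 by 2-fold or more and 6 were dimmer by as much.

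**Figure D2:**
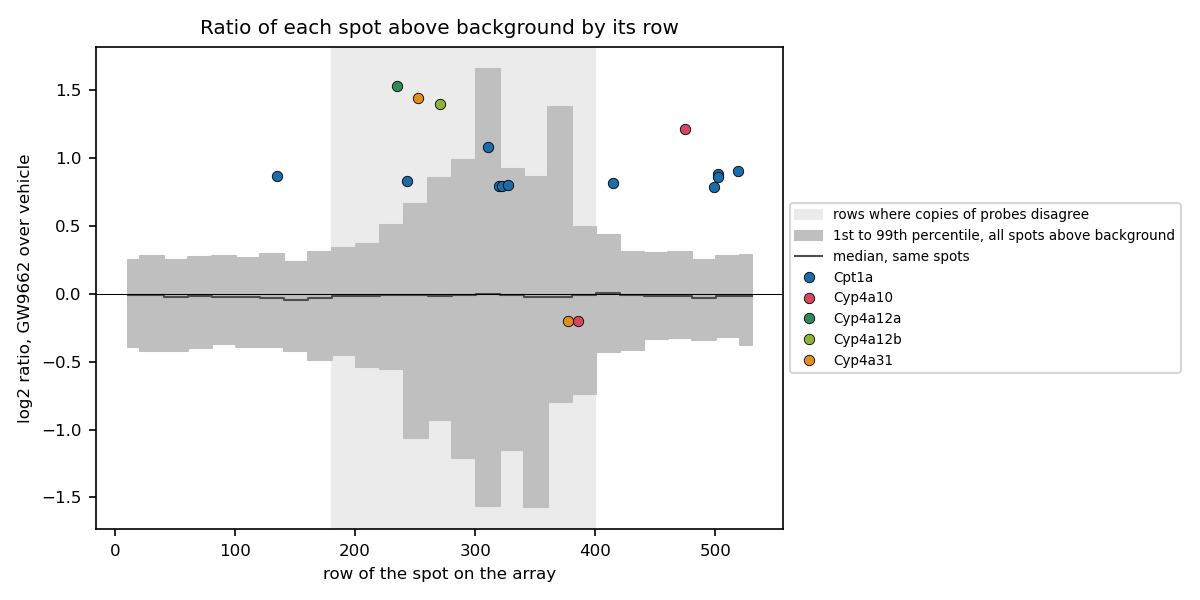
Log2 ratio of GW9662 over vehicle for each spot of the 6 genes above background (coloured points) against its row on the array, over the 1st to 99th percentile (dark grey) and median (line) of all spots above background in bands of 20 rows, with rows 181 to 400 shaded light grey. The Cpt1a copies keep ratios from 0.78 to 0.91 across the array, the Cyp4a10 spot in row 475 lies in an area where the percentiles are narrow, and the spots of Cyp4a12a, Cyp4a12b and Cyp4a31 lie where they are wider.

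Reading each gene by its brightest probe, 5 of the 6 genes were above background on both arrays of each comparison. For GW9662 over vehicle, 4 of the 5 (Cyp4a10, Cyp4a12a, Cyp4a12b and Cyp4a31) were at least 2-fold higher, where 0.354% of all 15809 genes were, and 0 of 5 were at least 2-fold lower, where 0.468% of all were. At 1.5-fold, Cpt1a joined them, and 0.696% of all genes were that much higher. These genes were chosen on this contrast, so the counts only restate the choice. The 5 genes ranked 31st (Cyp4a12a), 36th (Cyp4a31), 38th (Cyp4a12b), 46th (Cyp4a10) and 70th (Cpt1a) from the top, and their median log2 ratio was 1.40 beside -0.022 over all genes. Over all genes 56 were 2-fold or more above vehicle and 74 below, and with the spots of rows 181 to 400 left out these numbers were 3 and 0 of 9924, so nearly all such differences in either direction were read in those rows. Cyp4a10 was among the 3, while Cyp4a12a, Cyp4a12b and Cyp4a31 have no spot above background outside those rows.

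For epoxides over vehicle, 0 of the 5 genes were at least 2-fold higher, where 0.215% of 15826 genes were, and 0 were at least 2-fold lower, where 2.07% were. Their log2 ratios ran from -0.42 (Cyp4a10) to 0.006 (Cyp4a12b), with a median of -0.026 beside -0.073 over all genes. Cpt1a, Cyp4a12a and Cyp4a12b lay within 0.026 of 0, below the median SD of 0.041 among copies of a probe. This comparison uses the same vehicle array as the one before it.

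Epoxides over GW9662 sets the treated arrays side by side and shares an array with each of the others. Cyp4a31 had -1.82 (3.52-fold brighter with GW9662), Cyp4a10 -1.63 (3.10-fold), Cyp4a12a -1.55 (2.94-fold), Cyp4a12b -1.39 (2.62-fold) and Cpt1a -0.86 (1.81-fold). That makes 4 of 5 at least 2-fold lower with epoxides, where 0.959% of 16060 genes were, and the median of the 5 was -1.55 beside -0.056 over all genes. The genes were chosen as bright on the GW9662 array, which is one side of this comparison, so this count is no separate result. Over all genes, 33 were higher by 2-fold or more and 154 lower, which puts 17.6% of them on the higher side, and this share was 38.9% with quantile normalization, 33.3% with cyclic loess, 39.0% with a trend in GC content and signal removed and 40.7% without rows 181 to 400. For epoxides over vehicle the share was 9.39%, and 30.9%, 22.9% and 34.5% with the first 3 of these settings. Without rows 181 to 400 that share was 10.4%, about as in the main setting.

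**Figure D3:**
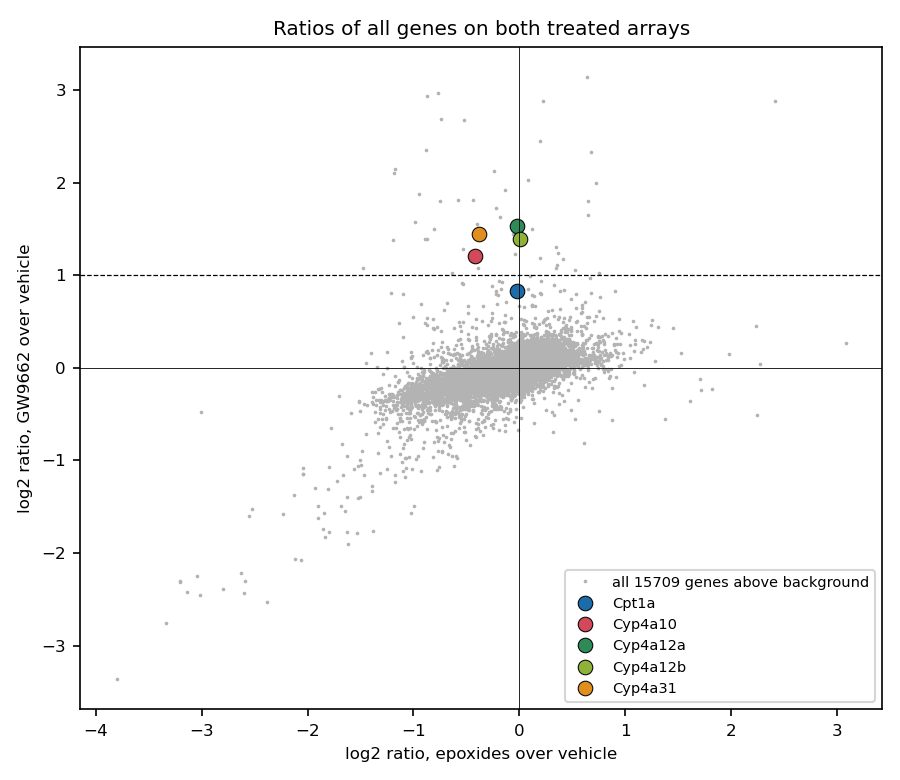
Log2 ratio of epoxides over vehicle (x axis) and of GW9662 over vehicle (y axis) for 15709 genes above background on all 3 arrays (grey) and for the 5 such genes among the 6 (coloured), with a dashed line at 2-fold. Both axes share the vehicle array, and the coloured points lie between 0.83 and 1.53 on the y axis and between -0.42 and 0.006 on the x axis.

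The genes nearest to Cyp4a12a and Cpt1a in the plane of these 2 ratios were looked up among 11423 genes with a plain symbol. Nearest to Cyp4a12a was Pdss2, a subunit of the enzyme that makes the side chain of coenzyme Q, at a distance of 0.027 in log2 units. It had levels of -2.39 with epoxides and -0.82 with GW9662, against -2.34 with vehicle, in a spot outside rows 181 to 400. Wdr25 followed at 0.096, then Kcna5, a potassium channel, at 0.38, Tceal8 at 0.40 and Cdkl3 at 0.40, all 4 read inside those rows. Nearest to Cpt1a were Gabre, a subunit of GABA-A receptors, at 0.11, Uba3, the catalytic subunit of the NEDD8-activating enzyme, at 0.15, Myl4, a myosin light chain, at 0.15, Tead1, a transcription factor of the Hippo pathway, at 0.16 and Aif1l at 0.17. Likeness here rests on 3 arrays and the distance from 1 vehicle array.

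On chromosome 4 within 100 kb of the probes, those of Cyp4a30b and Cyp4a32 were not above background on any array. Cyp4b1-ps2, a pseudogene read inside rows 181 to 400, was above background on all 3 arrays and was higher with GW9662, at -4.52 with epoxides and -3.91 with GW9662, against -4.45 with vehicle, a log2 ratio of 0.53 for GW9662 over vehicle. Cyp4b1, a P450 that lies beside the cluster, had -0.05. Around Cpt1a on chromosome 19, Tesmin had 0.05, Gal, which encodes the neuropeptide galanin, had -0.24, and the 2 probes of Ppp6r3, a regulatory subunit of protein phosphatase 6, had 0.25 and 0.06.

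Of 15 further Cyp4 genes on the array, 6 were above background with GW9662 and vehicle, 2 above 0 and 4 below, with a median log2 ratio of -0.08, and 0 differed by 2-fold. With quantile normalization and with cyclic loess 3 lay above 0 and 3 below. Cyp4f18, the P450 that hydroxylates leukotriene B4 in mouse neutrophils, had -0.13, Cyp4f16 -0.13, Cyp4v3, a fatty acid hydroxylase, 0.13 and Cyp4f13 -0.12. Cyp4f39, an omega-hydroxylase of very long fatty acids, is named because of its values: its spot, inside rows 181 to 400, was above background with GW9662 alone, at -4.14, at least 1.62-fold higher than with vehicle. Such a bound sets the GW9662 level against the lowest level called well above background with vehicle, or against the gene's own vehicle level where that is higher. For epoxides over vehicle 0 of the 6 were above 0, where 38.9% of all genes were, and they ran from -0.61 to -0.028. That count depended on the scaling, with 2 above 0 by quantile normalization, 1 by cyclic loess and 4 once a trend with GC content and signal was taken out.

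The carnitine shuttle, through which the products of CPT1A enter mitochondria, had 5 of 7 further members above background. Slc25a20, the carrier of the inner membrane, had levels of -2.38 with epoxides and -1.80 with GW9662, against -2.06 with vehicle, a log2 ratio of 0.26 for GW9662 over vehicle. Slc22a5, the carnitine transporter of the plasma membrane, had 0.13, Crot, which makes acylcarnitines in peroxisomes, 0.13, Cpt2, which returns acyl groups to CoA in the matrix, -0.04 and Cpt1b, the muscle form of CPT1, named to complete the list, 0.03. Thus 4 of 5 lay above 0 (3 with normexp), where 42.1% of all genes did, with a median of 0.13, and 0 differed by 2-fold. In epoxides over vehicle 2 of the 5 lay above 0, and the median was -0.09.

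Enzymes of beta-oxidation lay close to vehicle on the GW9662 array. Of 22 members 21 were above background, 12 above 0 and 9 below, between -0.14 and 0.24, with a median of 0.02. Farthest from 0 were Hadh, the short-chain hydroxyacyl-CoA dehydrogenase, at 0.24, Acsl3, an acyl-CoA synthetase, at 0.20, Etfdh, which passes electrons from acyl-CoA dehydrogenases to ubiquinone, at 0.17 and Eci1, an enoyl-CoA isomerase, at -0.14. The median was 0.02 for epoxides over vehicle too, over a wider range from -0.49 to 0.48, with Acsl3 at the top.

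Genes that set the level of malonyl-CoA, the inhibitor of CPT1A, by making it, breaking it down, using it or phosphorylating the carboxylase that makes it, had ratios between -0.03 and 0.10 for GW9662 over vehicle in 6 of 8 members. Prkaa1, a catalytic subunit of AMP-activated kinase, had 0.10, Acaca, an acetyl-CoA carboxylase, 0.03, and the kinase's subunits Prkag1 and Prkab1 -0.03 each. Prkaa2, the other catalytic subunit, was above background with vehicle alone, at -7.22 with epoxides and -5.54 with GW9662, against -4.69 with vehicle. Enzymes that oxidise omega-hydroxylated fatty acids further, with the electron donors of P450s, had 6 of 10 members above background and a median of -0.02. Cyb5r3, a cytochrome b5 reductase, had -0.13, the cytochromes b5 Cyb5b and Cyb5a 0.10 and -0.06, and the fatty aldehyde dehydrogenase Aldh3a2 -0.04. No member of either list that was above background on both arrays differed by 2-fold in GW9662 over vehicle or in epoxides over vehicle, a count that leaves out genes lit on 1 array. Adh7, an alcohol dehydrogenase, was lit with GW9662 alone, at -7.86 with epoxides and -3.35 with GW9662, against -7.13 with vehicle, which is at least 2.80-fold higher with GW9662 than with vehicle in a spot inside rows 181 to 400. Adh4 and Aldh1a1 were lit on both treated arrays and not with vehicle, where their own levels were higher, so no fold is given. Genes lit on 1 or 2 arrays are named here after their values were seen.

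Other textbook targets of PPAR alpha and delta were measured in 19 of 30 cases, 9 above 0 and 10 below (11 and 8 with quantile normalization and with cyclic loess, 12 and 7 with the trend removed), with a median log2 ratio of -0.01 for GW9662 over vehicle and of -0.05 for epoxides over vehicle. Slc27a1, a fatty acid transporter, had -0.26, the acyl-CoA dehydrogenase Acadl 0.20, the thioesterase Acot3 0.19 and Hadhb, the beta subunit of the mitochondrial trifunctional protein, 0.18. In either comparison 0 of the 19 differed by 2-fold, but these are only the genes above background on both arrays. Of the others, Vnn1, a pantetheinase, was lit with GW9662 alone, at -5.93 with epoxides and -3.55 with GW9662, against -5.15 with vehicle, at least 2.45-fold higher than with vehicle. Creb3l3, a transcription factor of liver and gut, was lit with GW9662 alone too, at -7.76 with epoxides and -4.82 with GW9662, against -6.49 with vehicle, a bound of 1.01-fold. Cd36, a fatty acid transporter, was lit with vehicle alone, at -5.71 with epoxides and -6.92 with GW9662, against -4.68 with vehicle. Vnn1, Creb3l3 and Cd36 were read inside rows 181 to 400. Acot1, a thioesterase, was lit with epoxides alone, at -4.97 with epoxides and -6.87 with GW9662, against -6.78 with vehicle. The vehicle array counted no spot dimmer than -4.84 as lit, so a level of -4.97 would have been dark there. For that reason no fold over vehicle is given for Acot1.

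The receptors themselves were above background. Pparg, the target of GW9662, was dim, at -4.39 with epoxides and -3.94 with GW9662, against -3.75 with vehicle. The partners of PPARs among the retinoid X receptors had levels of 0.51, 0.85 and 1.22 (Rxrg), 3.05, 3.22 and 3.36 (Rxrb) and -4.91, -4.34 and -4.22 (Rxra) on the epoxide, GW9662 and vehicle arrays. Each of these 4 was highest with vehicle and lowest with epoxides, and stayed so under each of the 5 other ways of scaling or correcting the arrays (normexp, quantile, cyclic loess, spots above background, trend removed). Pparg and Rxra are dim, and their ratios of -0.19 and -0.12 for GW9662 over vehicle and of -0.64 and -0.69 for epoxides over vehicle are near the medians of unlit probes, -0.20 and -0.75. Rxrg and Rxrb had log2 ratios of -0.37 and -0.14 for GW9662 over vehicle. Of 12 measured PPARs, retinoid X receptors and coregulators, 4 were above 0 and 8 below, with a median of -0.06, and 0 differed by 2-fold.

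**Figure D4:**
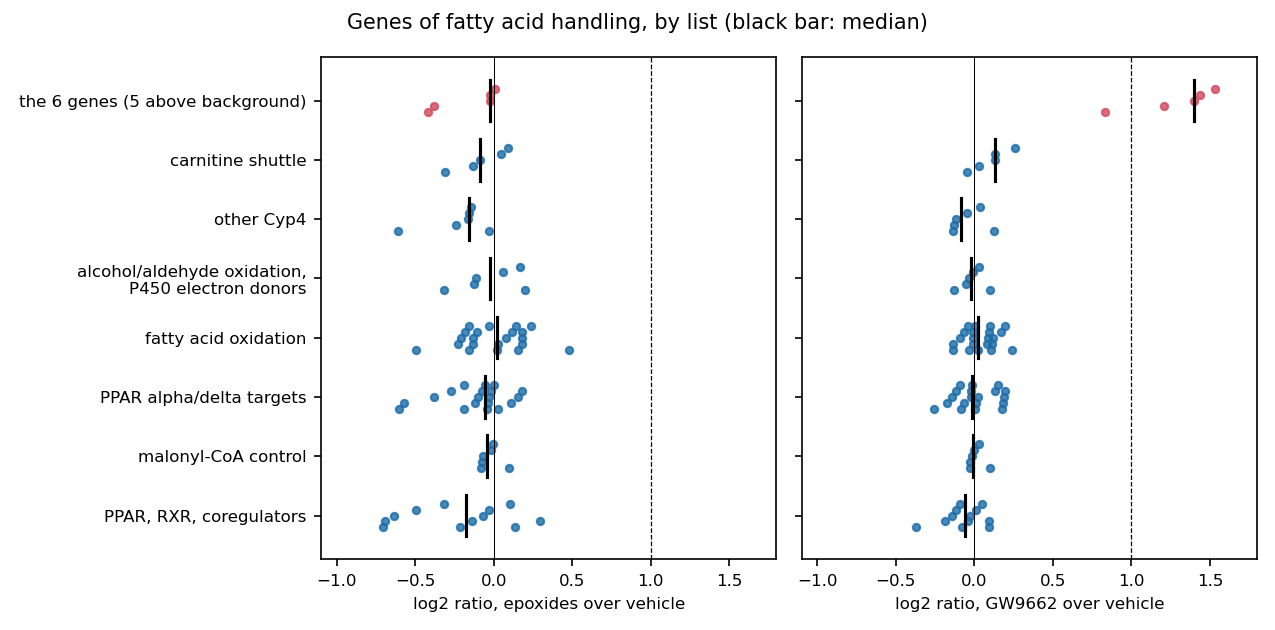
Log2 ratio of epoxides over vehicle (left) and of GW9662 over vehicle (right) for the 5 measured genes of the 6 (red) and for the measured members of 7 lists of fatty acid genes (blue), with 1 point per gene, black bars at list medians and a dashed line at 2-fold. The blue points of the right panel lie between -0.37 and 0.26, and the red ones between 0.83 and 1.53. The red genes were chosen on the contrast of the right panel, so their distance from the lists there restates the choice. List genes not above background on both arrays of a panel, such as Adh7, Vnn1 and Cyp4f39, are not drawn.

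Cyp4a mRNAs are abundant in liver and kidney, and markers of those tissues were dark or dim here. Alb, Apoa1 and Ttr were not above background on any array, and the summed signal of the 4 liver markers, in units of the 75th percentile, was 0.036 with epoxides and 0.059 with GW9662, against 0.072 with vehicle. The 3 markers of kidney proximal tubule summed to 0.037, 0.055 and 0.067, with only Slc34a1 above background. Neither list was brighter with GW9662 than with vehicle, but most of these probes were unlit. Unlit probes had medians of -0.20 for GW9662 over vehicle and -0.75 for epoxides over vehicle. The order of these sums therefore cannot be read as a difference in RNA of those tissues. Of 5 neutrophil markers, 4 were above background with epoxides, 4 with GW9662 and 3 with vehicle, and their sums were 1.31, 1.95 and 1.87. Mpo, the peroxidase of neutrophil granules, had -5.42 with epoxides and -2.42 with GW9662, against -5.48 with vehicle, where it was not above background, in a spot inside rows 181 to 400, and it is named after its values were seen. Without Mpo the other 4 neutrophil markers summed to 1.29, 1.77 and 1.85, lower with GW9662 than with vehicle. The 3 of them above background on both arrays had a median log2 ratio of -0.063 for GW9662 over vehicle, with 1 above 0. The 2 basophil markers summed to 3.39, 3.08 and 3.36 and the 3 macrophage markers to 0.822, 0.751 and 0.781, so of these lists only the sum of neutrophil markers was higher with GW9662 than with vehicle, through the single Mpo spot. The part of neutrophil RNA in the results on the 6 genes was not tested.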

How the data were processed

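Total RNA (200 ng per labelling, Cy3, per the labels) was hybridised to 3 arrays of 60-base probes. The submitters' processing notes name Agilent Feature Extraction (version 11.5.1.1), whose processed signal is, per the file headers, a linear intensity with background subtracted and no scaling between arrays. The authors' deposited value table holds a linear ratio of that intensity to the array's 75th percentile (column medians 0.0500 for epoxides, 0.0413 for GW9662 and 0.0524 for vehicle), and the labels do not settle which assignment of the treated samples is right. Values come from the scanner files, and the value table served as a check.

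For a level, the log2 of the array's 75th percentile (non-control spots) was taken from the log2 of the processed intensity. Outlier spots (221, 251 and 230 on the epoxide, GW9662 and vehicle arrays, none of them of the 6 genes) were left out, no spot was saturated, and copies of a probe were averaged. Where a gene has several probes, that of the highest mean over the arrays stood for it, and it was measured in a comparison if most of its copies were well above background on each of the 2 arrays. RefSeq's gene table named 28330 of 39429 probes, and the file's name was kept for the rest. Coordinates are those of the files (mm9), and no annotation of exons on that build was used. Rows 181 to 400 make up 11 bands, each 20 rows high, where 2% or more of the readings of probes with at least 5 copies were off by 2-fold, a rule taken from earlier work on these data. They hold 41.9% of non-control spots.

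The 6 genes, the lists and the alternatives were chosen with earlier results of these data known. Named were every spot of the 6 genes, the up to 4 measured members of each list farthest from 0 in GW9662 over vehicle, and the 5 genes nearest to Cyp4a12a and to Cpt1a by Euclidean distance. Genes within 100 kb were named by position, with any others said to be named after their values were seen. The alternatives were normexp (offset 50), quantile normalization and cyclic loess (limma 3.58.1 in R 4.3.3), scaling on spots above background on all arrays, the value table, averaging a gene's detected probes, keeping dim probes, keeping outlier spots, rows 181 to 400 left out, a trend in GC content and signal removed, and 1.5-fold for counts. Levels and calls, made with Python 3.11.15, were tested on simulated data. The simulated arrays were the vehicle array with random noise and known fold changes added. They held no stray readings or background shifts that differ between arrays, so only the arithmetic was checked. The number of arrays limits the precision.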

Additional observations from a re-analysis of the deposited data

How the results depend on the processing

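No paired analysis was possible because each treatment had 1 array. With the value table's labels the count of genes at least 2-fold higher was 0 for GW9662 over vehicle (4 as reported) and 4 for epoxides over vehicle (0 as reported), and 0 were lower for epoxides over GW9662 (4 as reported). The GW9662 over vehicle ratios then became -0.42 for Cyp4a10, -0.021 for Cyp4a12a and -0.38 for Cyp4a31, and epoxides over GW9662 became 1.63 for Cyp4a10, 1.55 for Cyp4a12a, 1.39 for Cyp4a12b and 1.82 for Cyp4a31, since the table exchanges the treated arrays. With a gene's detected probes averaged, which adds the downstream probes, 2 genes were at least 2-fold higher for GW9662 over vehicle, with Cyp4a10 at 0.51 and Cyp4a31 at 0.62. Without rows 181 to 400 only Cyp4a10 and Cpt1a had spots above background left, so 1 gene was 2-fold higher for GW9662 over vehicle and 1 lower for epoxides over GW9662. With normexp Cyp4a10 was at 0.98, which leaves 3 genes 2-fold higher for GW9662 over vehicle. Across the settings other than the value table, the ratio of GW9662 over vehicle lay between 0.83 and 0.96 for Cpt1a, 0.51 and 1.29 for Cyp4a10, 1.48 and 1.55 for Cyp4a12a, 1.36 and 1.40 for Cyp4a12b, and 0.62 and 1.49 for Cyp4a31. For epoxides over vehicle the sign of Cpt1a, Cyp4a12a and Cyp4a12b was not fixed across those settings, within -0.061 and 0.076. Signal too near background limits Cyp4a14 and the unlit probes of Cyp4a10 and Cyp4a31.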
